A study of Homo sapiens with 4 samples.

Results

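The MYC, MAX and MXD network was followed in human NB4 leukemia cells that carried either a control vector or a vector expressing the histone demethylase JMJD3. Its members were taken by gene name from the deposited table and are MYC, MYCN, MYCL, MAX, MXD1, MXD3, MXD4, MXI1, MNT and MLX, 10 of 60662 genes. NB4 is an established line from acute promyelocytic leukemia that carries the PML-RARα fusion. The control group holds 2 libraries of cells with the lentiviral control vector and the JMJD3 group 2 libraries of cells with the JMJD3-expressing vector, and per the study's methods the vector also carried GFP, by which transduced cells were sorted. The comparison asks which transcripts differ when JMJD3 is raised in these cells. The labels name DMEM and Trizol for culture and RNA, while the methods name RPMI and a column kit. Lane 20 held vector library 1, and lane 17 held the rest. Separate cultures for the 2 libraries of a group are not stated in the sources, so p-values measure the spread between these samples, which may be technical.

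MYC is a transcription factor of the helix-loop-helix leucine zipper class that binds DNA only together with its partner MAX, mostly at E-boxes, and raises transcription of genes for ribosome production, nucleotide synthesis and the cell cycle. MXD1, MXI1, MXD3, MXD4 and MNT also pair with MAX but recruit the SIN3 and HDAC corepressors to the same sites, so that they compete with MYC. MLX is a MAX-like protein that pairs with MondoA (gene MLXIP), a glucose-responsive activator of TXNIP, and with some of the MXD proteins. In myeloid cells MYC is high in dividing progenitors and MXD1 is known to rise when granulocytes mature.

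Vector library 1 held 39078443 deposited counts and vector library 2 held 40768225, and the JMJD3 libraries held 35176388 and 34704909. These totals sum values that already carry a factor per library, and are not numbers of reads. Low counts were mostly whole multiples of 1.14297 and 1.04676 in vector libraries 1 and 2. In JMJD3 libraries 1 and 2 they were mostly whole multiples of 0.992796 and 0.82875. Sequencing depth was thus not compared. Counts are given as CPM, a gene's share of the TMM-scaled library size, and levels of different genes are compared as deposited FPKM, which divides by transcript length, except where counts or CPM are named. KDM6B (ENSG00000132510), the gene for JMJD3, was measured first as a check of the labels. Its level was 15.8 and 13.7 CPM in the vector libraries and 37.9 and 44.1 CPM in the JMJD3 libraries. Both JMJD3 libraries were higher than both vector libraries, with a log2 fold change of 1.48 (standard error, SE, 0.13; adjusted p = 0.00114, edgeR's quasi-likelihood test).

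The cells were also checked against marker genes. MPO, the myeloperoxidase of promyelocyte granules, was the most abundant of 10 promyelocyte markers at 13880, 14110, 9379 and 9421 CPM in vector libraries 1 and 2 and JMJD3 libraries 1 and 2. The 10 markers summed to 17080, 17830, 11140 and 11120 CPM in the same order. Of 9 tested markers, 6 (66.7%) were lower in JMJD3 cells, 2 (22.2%) were higher and 1 was not called. Across all genes tested, 19.1% were lower and 21.6% higher. CTSG (log2 fold change -3.91), PRTN3 (-1.81), MPO (-0.57), AZU1 (-0.56) and RARA (-0.42) were lower, and MYB (1.00) and CD33 (0.29) were higher, while the elastase gene ELANE lay between 0.027 and 0.351 CPM and was not tested. On FPKM the groups overlapped for CD33, at 61.7 and 66.4 against 68.5 and 65.1, and limma on log2(FPKM + 1) gave it a log2 fold change of 0.061. CD33 passed the threshold in 6 of 14 alternatives, and without either JMJD3 library it was not called. Without JMJD3 library 1, without JMJD3 library 2 and without vector library 2, 10 markers were tested, with 1, 1 and 3 higher and 4, 4 and 7 lower. With library totals alone 3 of 9 were higher and 4 lower. The part of these genes in the network's differences was not tested.

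Markers of other cells were measured as well. Of 9 erythroid markers, 8 had 0 counts in every library. The 6 T cell markers summed to 9.61, 9.98, 39.6 and 35.8 CPM, nearly all from TRAC (log2 fold change 1.99), which reached 53.9 and 49.0 FPKM in the JMJD3 libraries against 13.0 and 13.6 FPKM in the vector libraries, while CD3D, CD3E, CD3G, CD247 and CD8A stayed under 1 CPM. The 5 B cell markers summed to 25.9, 30.8, 36.6 and 32.8 CPM and were led by CD79B, at 19.5 to 26.5 FPKM, with CD79A higher (log2 fold change 0.83), MS4A1 at 0 counts and PAX5 at or under 0.0524 CPM. The 4 megakaryocyte markers summed to 0.621, 0.707, 1.78 and 1.67 CPM, nearly all from ITGA2B, with PF4 and GP9 at 0. The 7 stromal and epithelial markers summed to 6.72, 7.68, 3.51 and 2.86 CPM, with EPCAM at 4.53 and 5.29 CPM in vector libraries and 1.22 and 1.16 CPM in JMJD3 libraries (log2 fold change -2.05), KRT8 (named after its values were seen) at 2.08 and 2.20 against 2.21 and 1.65 CPM, and COL1A2, COL3A1 and KRT19 at 0. The part of TRAC, CD79A, ITGA2B and EPCAM in the results was not tested.

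Of the 10 network members, 8 passed the expression filter. Among these, MAX, MXD4 and MXI1 were higher in JMJD3 cells and MYC was lower, each at an adjusted p under 0.05, and 4 were not called. Across all 15246 genes tested, 3292 (21.6%) were higher and 2906 (19.1%) lower by the same rule, so that 3 higher and 1 lower of 8 is read against a broad background. The groups did not overlap in CPM for 6 of the 8 members, against 74.4% of all genes tested. The median log2 fold change of the 8 was -0.04, against 0.04 for all genes tested. Scaling by library totals alone, without the TMM factor, moved the median of all genes from 0.04 to 0.21 and the share of higher genes among all calls from 53.1% to 74.9%. Mitochondrial genes held 7.91% and 7.65% of counts in the vector libraries and 5.73% and 5.86% in the JMJD3 libraries, and their part in that shift was not tested. In bulk RNA, fewer cells that express a gene and less RNA per cell cannot be told apart.

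**Figure D1:**
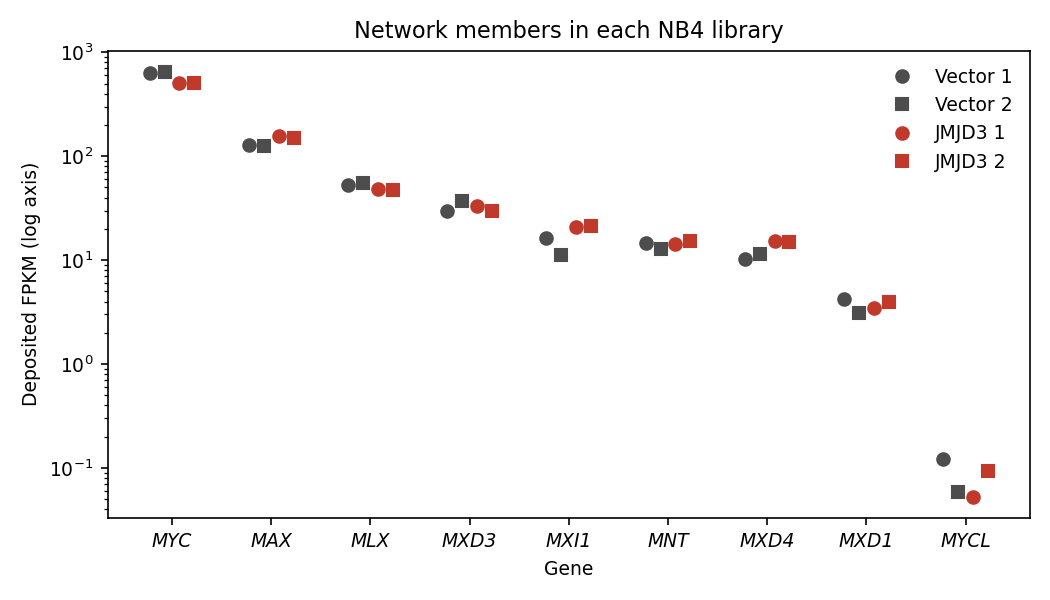
Deposited FPKM (log axis) of 9 network members in the 4 NB4 libraries, with vector libraries in grey, JMJD3 libraries in red, library 1 as circles and library 2 as squares. MYC is the most abundant at 505 to 646 FPKM and MYCL the least, and MYCN, at 0 in every library, is left out.

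MYC (ENSG00000136997) was by far the most abundant member. Its level was 626 and 646 FPKM in the vector libraries and 509 and 505 FPKM in the JMJD3 libraries, placing it between rank 236 and rank 245 of all genes in each library. Deposited FPKM did not add to a common total. Over all genes it came to 1344845 (vector library 1), 1445366 (vector library 2), 1004715 (JMJD3 library 1) and 1018094 (JMJD3 library 2). As a share of this total, MYC was higher in both JMJD3 libraries than in both vector libraries. Median FPKM per count, against vector library 1, was 0.992 in vector library 2 and 0.994 and 0.999 in the JMJD3 libraries. FPKM thus carries the scaling of the counts. In CPM MYC was 1250 and 1255 in vector libraries and 1025 and 1010 in JMJD3 libraries. The groups did not overlap, and the difference was many times the gap between libraries of a group. The log2 fold change was -0.30 (SE 0.065, adjusted p = 0.0131, edgeR's quasi-likelihood test), a mean of 1253 ± 3.25 CPM (SD, n = 2) against 1017 ± 11.0 CPM (SD, n = 2). Scaled by library totals alone it was -0.13 with an adjusted p of 0.132, and within lane 17 it was -0.35. Over 14 other ways of processing the adjusted p for MYC ran from 0.000246 to 0.183.

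The other MYC family genes were almost silent. MYCN, the family member of neural and embryonic tissue, had 0 counts in all 4 libraries, and a count of 0 leaves room for at most 3 counts (0.0786 to 0.0810 CPM), a bound on counting error alone. The bound is approximate, as it takes the deposited counts, which carry a factor per library, as reads. MYCL had rounded deposited counts of 11 and 4 in vector libraries and 6 and 7 in JMJD3 libraries, which are not numbers of reads. It was too low to test, so that a difference was not detectable. MYC thus made up nearly all of the family's transcripts. PVT1, a noncoding RNA beside MYC, was at 17.5 and 17.9 CPM in vector libraries and 14.0 and 12.9 CPM in JMJD3 libraries, a log2 fold change of -0.40 (adjusted p = 0.0259, edgeR's quasi-likelihood test). With library totals alone PVT1 was at -0.23 (adjusted p = 0.121), and its adjusted p by edgeR's quasi-likelihood test was 0.161 without JMJD3 library 1 and 0.336 without JMJD3 library 2, over a range of 0.00602 to 0.336. CASC11, another noncoding RNA of that locus, was near 1 CPM, with a log2 fold change of -0.85 in counts, but its groups overlapped in FPKM, at 0.464 and 0.440 against 0.482 and 0.342. Its counts per unit of FPKM shifted from 93.6 and 102 in vector libraries to 53.6 and 63.1 in JMJD3 libraries. MYCNOS, MYCNUT and MYCLP1 had 0 counts. CASC11 lies under the level of 1 FPKM set for naming genes and was added after its values were seen. Of these 2 locus RNAs, edgeR called 0 with library totals alone, where 1 had an unadjusted p under 0.05, and the DESeq2 Wald test and limma on FPKM each called 1. Without vector library 2 edgeR called 1 of them, and without JMJD3 library 1 or 2 it called 0, with 1 and 0 at an unadjusted p under 0.05.

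MAX (ENSG00000125952), the shared partner, moved the other way. It was at 128 and 126 FPKM in vector libraries and 155 and 151 FPKM in JMJD3 libraries. In CPM the values were 115 and 121 against 143 and 144. No JMJD3 library overlapped a vector library, and the log2 fold change was 0.28 (SE 0.079, adjusted p = 0.0288, edgeR's quasi-likelihood test). MAX passed the threshold in 6 of 14 alternatives. By edgeR's quasi-likelihood test the adjusted p was 0.0559 with DESeq2 size factors, 0.0607 with no filter on low counts, 0.286 without JMJD3 library 1 and 0.311 without JMJD3 library 2. By the DESeq2 Wald test it was 0.0805 and by limma on log2(FPKM + 1) 0.0544, over a range of 0.00523 to 0.311, and within lane 17 the log2 fold change was 0.20. RefSeq places FNTB, CHURC1-FNTB and MAX-AS1 over the span of MAX, and whether counting used strand is not given in the sources used here, so reads of these genes may not be told apart. The same holds for MXI1 with LOC105378480, MXD4 with MIR4800, MXD3 with PRELID1, MLX with PSMC3IP, MXD1 with ASPRV1, MYCN with MYCNOS and MYCL with MYCL-AS1.

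The ratio of MYC to MAX does not depend on how libraries are scaled. In FPKM, the MYC family summed to 4.88 and 5.13 times MAX in the vector libraries and to 3.29 and 3.35 times MAX in the JMJD3 libraries. In counts, the ratio of MYC to MAX was 10.9 and 10.4 against 7.17 and 7.03. The groups did not overlap on either scale. No test was made of the ratio.

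Of the MAX partners that oppose MYC, 2 of 5 were higher, against 21.6% of all genes tested. MXD4 (ENSG00000123933) was at 36.8 and 40.9 CPM in vector libraries and 52.8 and 54.2 CPM in JMJD3 libraries. The groups were apart by more than the spread within either, with a log2 fold change of 0.46 (SE 0.10, adjusted p = 0.0130, edgeR's quasi-likelihood test). MXI1 (ENSG00000119950), also known as MXD2, was at 25.5 and 19.7 CPM in vector libraries and 29.9 and 32.9 CPM in JMJD3 libraries. Vector library 2 was the lowest, the groups did not overlap, and the log2 fold change was 0.48 (SE 0.14, adjusted p = 0.0376, edgeR's quasi-likelihood test). Within lane 17, without vector library 1, the log2 fold changes were 0.34 for MXD4 and 0.63 for MXI1, and without vector library 2 they were 0.54 and 0.30. By edgeR's quasi-likelihood test the adjusted p for MXI1 was 0.0474 without vector library 2, 0.0664 without JMJD3 library 1 and 0.209 without JMJD3 library 2, and for MXD4 it was 0.112 without JMJD3 library 1 and 0.160 without JMJD3 library 2. On log2(FPKM + 1) with limma the adjusted p was 0.0562 for MXI1 and 0.0439 for MXD4, within ranges of 0.00100 to 0.209 and 0.000708 to 0.160 over the alternatives.

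MXD3, MXD1 and MNT were not called. MXD3 (ENSG00000213347), which is expressed in dividing cells, was at 45.3 and 56.0 CPM in vector libraries and 41.7 and 37.2 CPM in JMJD3 libraries. These did not overlap, but the log2 fold change of -0.36 (SE 0.13) had an adjusted p of 0.0669 by edgeR's quasi-likelihood test. That log2 fold change was -0.55 without vector library 1 and -0.20 without vector library 2. In FPKM the groups overlapped, at 30.0 and 37.1 against 33.4 and 29.7. The number of counts per unit of FPKM, which follows the transcript length used, was 55.9 and 57.6 for MXD3 in vector libraries and 46.3 and 46.4 in JMJD3 libraries. A shift of this kind was also seen for MNT, at 107 and 114 against 86.3 and 94.1, whereas for MYC the values lay between 74.0 and 74.6. MXD3 was called lower with the DESeq2 Wald test (adjusted p = 0.0289), and its adjusted p ran from 0.00558 to 0.660 over the alternatives. Within lane 17 its log2 fold change was the -0.55 given above, with vector library 2 alone in its group.

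MNT (ENSG00000070444), the most widely expressed MAX-bound repressor, was at 42.4 and 38.5 CPM in vector libraries and 33.4 and 38.6 CPM in JMJD3 libraries, and the groups overlapped. Its log2 fold change was -0.17 (SE 0.12, adjusted p = 0.281, edgeR's quasi-likelihood test), and the sign turned on log2(FPKM + 1), at 0.09. Without JMJD3 library 1 the log2 fold change of MNT was -0.066, and without JMJD3 library 2 it was -0.27. MXD1 (ENSG00000059728) was at 22.6 and 16.3 CPM against 18.7 and 21.1 CPM, also overlapping. The log2 fold change was 0.030 (SE 0.17, adjusted p = 0.896, edgeR's quasi-likelihood test). By FPKM the order within the repressors was MXD3, then MXI1, MNT and MXD4, which lay between 10.3 and 21.3 FPKM and crossed each other across libraries, then MXD1 at 3.13 to 4.26 FPKM. Summed over the 5 repressors, FPKM was 75.6 and 75.8 in vector libraries and 87.0 and 84.9 in JMJD3 libraries, while in CPM the sum was 173 and 171 against 176 and 184. Set against the sum of FPKM, the MYC family stood at 8.29 and 8.52 times in vector libraries and 5.85 and 5.95 times in JMJD3 libraries. In counts, MYC stood at 7.25 and 7.32 times the summed repressors in vector libraries and 5.81 and 5.49 times in JMJD3 libraries.

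**Figure D2:**
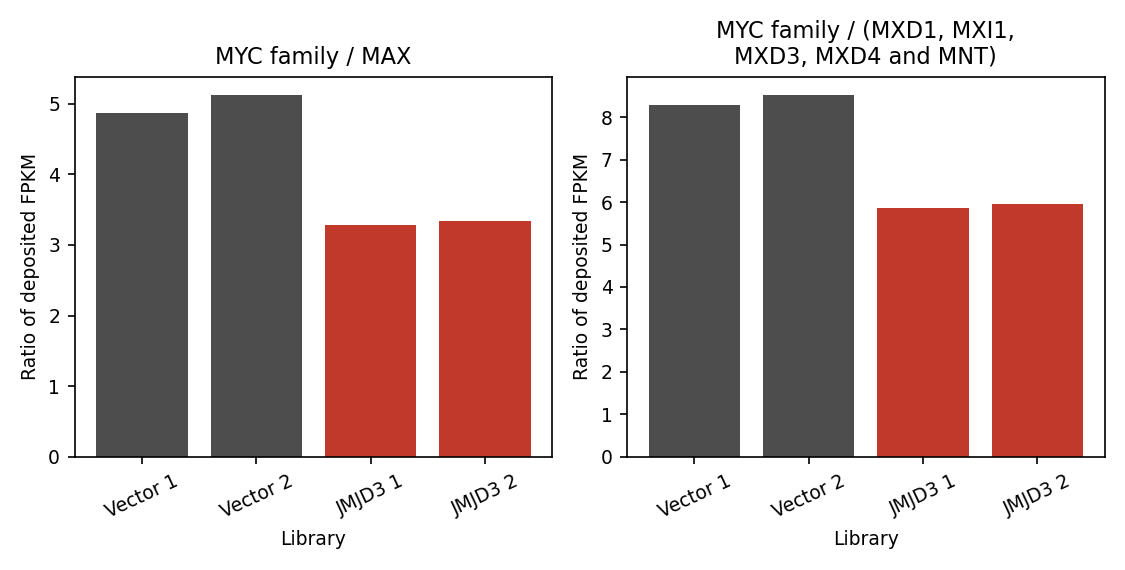
Ratio of deposited FPKM within each NB4 library, for the MYC family over MAX (left) and over the sum of MXD1, MXI1, MXD3, MXD4 and MNT (right), with vector libraries in grey and JMJD3 libraries in red. Both ratios are lower in the JMJD3 libraries, 3.29 and 3.35 against 4.88 and 5.13 on the left.

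MLX (ENSG00000108788) was at 90.8 and 96.1 CPM in vector libraries and 86.8 and 85.3 CPM in JMJD3 libraries. The groups did not overlap, but the gap was small, with a log2 fold change of -0.12 (SE 0.083, adjusted p = 0.283, edgeR's quasi-likelihood test), and the sign turned under library totals alone (0.05). Within lane 17, with vector library 2 alone in its group, the log2 fold change was -0.20. MLXIP, the gene of its partner MondoA, was at 125 and 121 CPM in vector libraries and 91.3 and 101 CPM in JMJD3 libraries. It was lower, with a log2 fold change of -0.36 (SE 0.088, adjusted p = 0.0193, edgeR's quasi-likelihood test). MLXIP kept this call in 8 of 14 alternatives. With library totals alone its log2 fold change was -0.19 (adjusted p = 0.137), and by edgeR's quasi-likelihood test the adjusted p was 0.309 without JMJD3 library 1 and 0.116 without JMJD3 library 2, over a range of 0.00106 to 0.309. MLXIPL, the gene of the related ChREBP, did not exceed 0.0809 CPM in any library. MGA, a large MAX partner found in a polycomb complex, was at 41.0 and 28.0 CPM against 26.3 and 28.9 CPM, so that vector library 1 stood apart from the other 3 (log2 fold change -0.32, adjusted p = 0.199, edgeR's quasi-likelihood test). Without vector library 1 the log2 fold change of MGA was -0.061 (adjusted p = 0.589) and without vector library 2 it was -0.57 (adjusted p = 0.00629) by edgeR's quasi-likelihood test, within a range of 0.00629 to 0.867 over the alternatives.

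**Figure D3:**
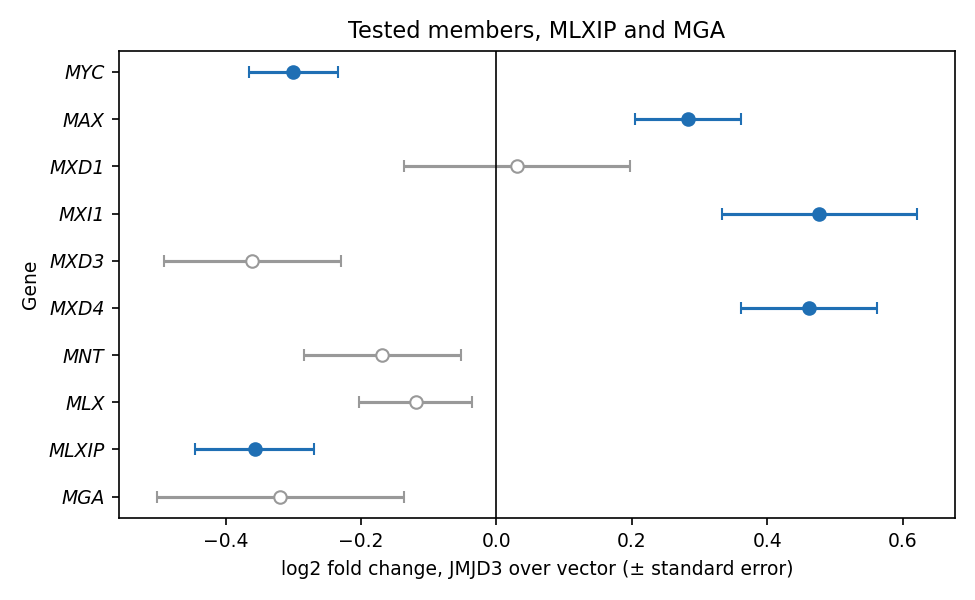
Log2 fold change (JMJD3 over vector) with its standard error for the 8 tested members, MLXIP and MGA, from edgeR with 2 libraries per group. Filled blue points passed an adjusted p under 0.05, open grey points did not, and MNT, MLX and MXD1 turn sign under at least 1 other scaling or unit.

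Leaving out a JMJD3 library ended all 4 calls of members by edgeR's quasi-likelihood test, with 2 higher and 1 lower at an unadjusted p under 0.05 without JMJD3 library 1 and 1 higher without JMJD3 library 2. Without JMJD3 library 1 the log2 fold changes were -0.31 for MYC, 0.29 for MAX, 0.48 for MXD4 and 0.55 for MXI1, and without JMJD3 library 2 they were -0.29, 0.28, 0.45 and 0.41. The numbers of genes called over the whole table also dropped, from 3292 higher and 2906 lower to 2027 and 1368 without JMJD3 library 1 and to 1890 and 1110 without JMJD3 library 2. In these fits, and in those without a vector library, the lone library is assumed to vary like the other group.

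**Figure D4:**
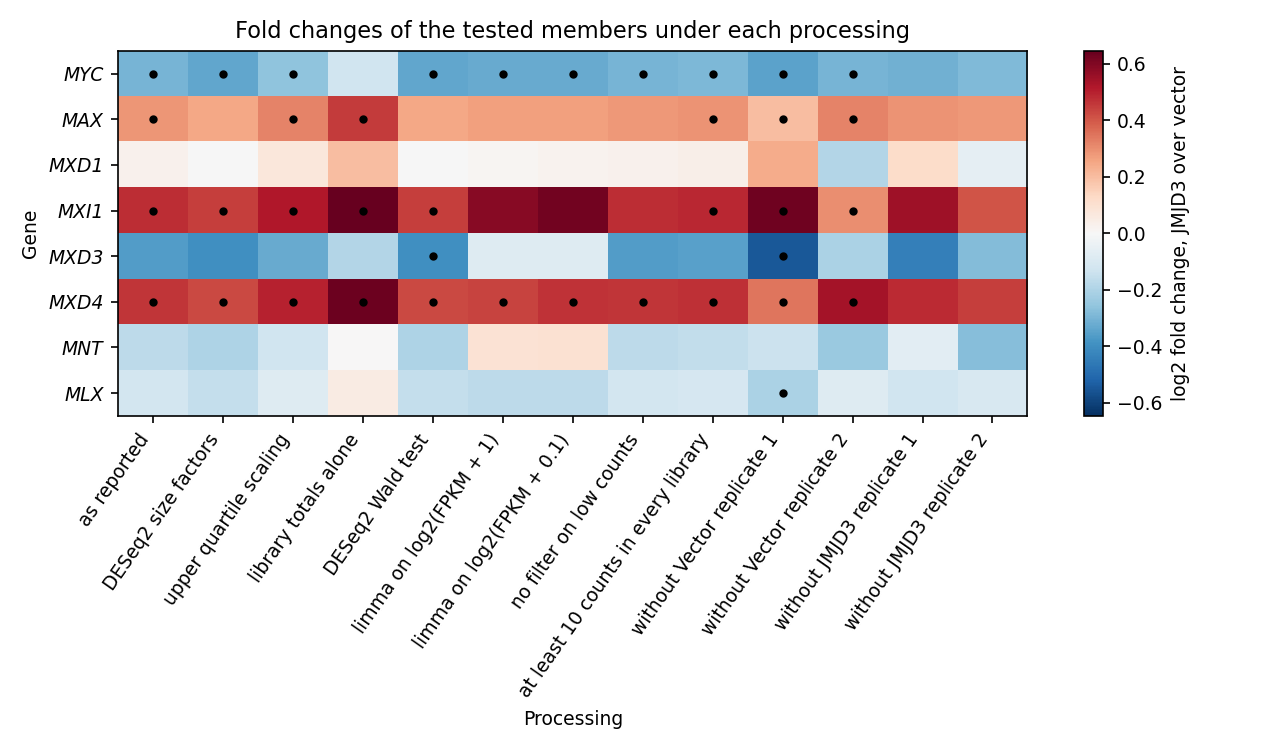
Log2 fold change (colour, JMJD3 over vector) of the 8 tested members as reported and under 12 other ways of processing, with a dot where the adjusted p was under 0.05. MYC stays negative and MAX, MXD4 and MXI1 stay positive in all columns, while MXD1, MNT and MLX change sign.

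E-boxes were searched in the promoters of the members because MYC, the MXD proteins and MNT bind them with MAX. The windows run from 250 bases before to 50 after each start site in RefSeq (GRCh38.p14), and 9 of the 10 members matched, with 12 windows. The member without a matching window was MYC, so its promoter was not searched. The motif CACGTG, which reads the same on both strands, was found in 3 windows, those of MXD4, MNT and MLX, in 2548 of all 35116 windows (7.26%) and in 9.45% of the windows of tested genes. The 250 bases before these starts are given 5′ to 3′ on the strand of the gene, with the motif in capitals. They lie at chr4:2262110-2262359 on the minus strand for MXD4, chr17:2401061-2401310 on the minus strand for MNT and chr17:42566850-42567099 on the plus strand for MLX.
MXD4: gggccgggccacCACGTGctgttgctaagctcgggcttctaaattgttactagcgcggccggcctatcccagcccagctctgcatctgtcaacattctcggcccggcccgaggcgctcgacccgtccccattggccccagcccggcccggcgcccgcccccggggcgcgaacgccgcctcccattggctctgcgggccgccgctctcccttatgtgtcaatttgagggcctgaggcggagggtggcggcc
MNT: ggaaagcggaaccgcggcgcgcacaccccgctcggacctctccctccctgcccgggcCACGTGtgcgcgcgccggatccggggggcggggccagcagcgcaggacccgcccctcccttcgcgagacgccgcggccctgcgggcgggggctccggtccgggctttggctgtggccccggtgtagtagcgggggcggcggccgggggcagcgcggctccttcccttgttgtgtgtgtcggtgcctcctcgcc
MLX: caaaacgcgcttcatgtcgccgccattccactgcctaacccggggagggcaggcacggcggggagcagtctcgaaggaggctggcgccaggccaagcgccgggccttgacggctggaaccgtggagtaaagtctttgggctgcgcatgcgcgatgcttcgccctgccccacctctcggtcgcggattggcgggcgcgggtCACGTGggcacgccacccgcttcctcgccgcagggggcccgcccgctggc
The motif begins 238 bases before the start for MXD4, 193 for MNT and 50 for MLX. MXD4 was higher, and MNT and MLX were not called. A match describes these letters only and was not tied to binding.

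The list of 39 genes known to be activated by MYC was mostly lower. All 39 were tested, and 23 (59.0%) were lower, 1 (2.56%) was higher and 15 were not called, against 19.1% lower and 21.6% higher of all genes. The median log2 fold change of the list was -0.35, against 0.04 for all genes. Scaled by library totals alone, 13 were lower and 4 higher, with a median of -0.18 against 0.21 for all genes. Without a JMJD3 library the number lower was 15 or 11.

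Genes of ribosome production and the cell cycle were among those that fell. CCND2, the gene of cyclin D2, was at 159 and 193 CPM in vector libraries and 68.5 and 60.0 CPM in JMJD3 libraries. The groups were far apart, with a log2 fold change of -1.45 (adjusted p = 0.00107, edgeR's quasi-likelihood test). MRTO4 and PES1, needed to build the large ribosomal subunit, had log2 fold changes of -0.85 and -0.84. NOP56, a nucleolar core protein of small RNA particles, had -0.67, and NME1, a nucleoside diphosphate kinase, -0.62, with adjusted p-values of 0.00239 and 0.00830 by edgeR's quasi-likelihood test. TFRC, the transferrin receptor, was the 1 gene of the list that was higher, at 314 and 257 CPM in vector libraries and 360 and 389 CPM in JMJD3 libraries (log2 fold change 0.39, adjusted p = 0.0297, edgeR's quasi-likelihood test). TFRC was not called with limma on log2(FPKM + 1) or log2(FPKM + 0.1), or with no filter on low counts. DESeq2 size factors, library totals alone and the DESeq2 Wald test kept its call. Its log2 fold change was 0.25 without vector library 2, and without JMJD3 library 2 it was 0.33 and not called.

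Of the 39 genes, 33 had a RefSeq promoter, and 19 of these (57.6%) held CACGTG in at least 1 window, against 12.7% of tested genes and 8.77% of all genes with a window. Among the 19, 12 (63.2%) were lower, and among the 14 without it 8 (57.1%) were lower and 1 was higher. Over all tested genes with a promoter, 27.6% of 1231 genes with the motif were lower and 18.8% higher, against 20.1% lower and 23.0% higher of 8432 genes without it. These shares are a description, and genes with the motif were not matched for level or length. The 57.6% is a property of the chosen list of known MYC targets, and expression in these libraries does not enter it.

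**Figure D5:**
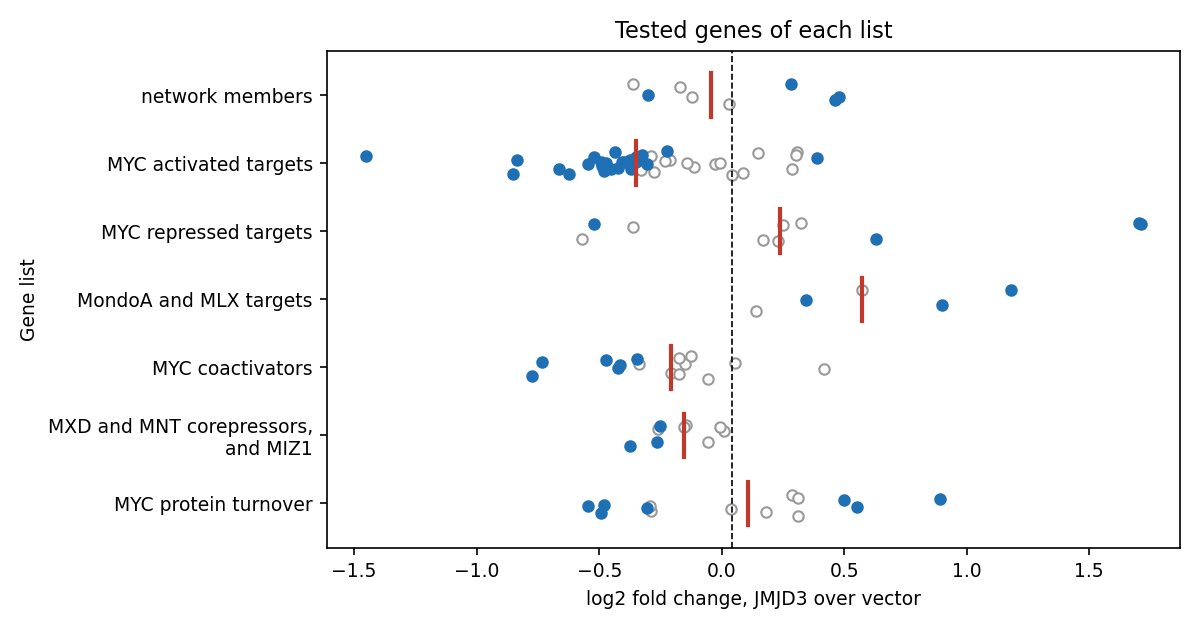
Log2 fold change (JMJD3 over vector) of every tested gene in 7 lists, spread at random on the vertical axis within a list, with filled blue points for an adjusted p under 0.05, a red bar for the median of the list and a dashed line for the median of all genes tested (0.04). The MYC activated targets lie mostly on the left, with a median of -0.35, and the 5 MondoA and MLX targets on the right.

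Genes that MYC is known to repress were mixed. Of 12, 10 were tested, with 3 (30.0%) higher, 1 (10.0%) lower and 6 not called, against 21.6% and 19.1% of all genes, and a median log2 fold change of 0.24. The number higher was 5 with library totals alone and 1 with limma on FPKM. Among the tested repressed targets, 2 were lower without vector library 1 and 0 without JMJD3 library 2 (1 with edgeR at an unadjusted p under 0.05), while the DESeq2 Wald test on all libraries called 2. NDRG1, a stress and differentiation gene, was at 9.90 and 10.7 CPM in vector libraries and 32.8 and 34.5 CPM in JMJD3 libraries, a log2 fold change of 1.71 (adjusted p = 0.000474, edgeR's quasi-likelihood test). CCND1 (0.63) and the low PDGFRB (1.70, under 1 CPM in every library) were also higher, and CEBPA, which drives granulocyte maturation, was lower (-0.52). The log2 fold changes of the genes not called were 0.25 for the cell cycle inhibitor gene CDKN1A, 0.17 for CDKN1B, 0.32 for GADD45A, -0.36 for GADD45B, -0.57 for NDRG2 and 0.23 for GAS1. CDKN1C and CDKN2B were too low to test. CDKN1A did not exceed 1.19 CPM, and its sign turned within lane 17 (-0.14).

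All 5 targets of MondoA and MLX had positive log2 fold changes, and 3 of them (60.0%) were called higher, against 21.6% of all genes. The number called ran from 1, with limma on FPKM, to 5, with library totals alone, and was 2 with DESeq2 size factors, with no filter on low counts or without JMJD3 library 2. TXNIP, which limits glucose uptake and binds thioredoxin, was at 152 and 143 CPM in vector libraries and 331 and 335 CPM in JMJD3 libraries. The groups were far apart, with a log2 fold change of 1.18 (adjusted p = 0.000532, edgeR's quasi-likelihood test), and the call held in all 14 alternatives run. HBP1 (0.90) and KLF10 (0.34) were also called, and ARRDC4 (0.57, adjusted p = 0.0695) and PFKFB3 (0.14, adjusted p = 0.296) were not, by edgeR's quasi-likelihood test. ARRDC4 passed the threshold in 7 of 14 alternatives, over a range of adjusted p from 0.00128 to 0.214. Its log2 fold change was 0.91 and called without vector library 1, 0.27 and not called without vector library 2, 0.60 and called without JMJD3 library 1, and 0.54 and not called without JMJD3 library 2. On log2(FPKM + 1) with limma HBP1 had a log2 fold change of 0.41 (adjusted p = 0.156, within a range of 1.94e-05 to 0.156). Counts per unit of FPKM for HBP1 were 50.6 and 63.8 in vector libraries and 75.4 and 71.6 in JMJD3 libraries, so that its fold depends on the unit. KLF10 kept its call in 6 of 14 alternatives. Its adjusted p by edgeR's quasi-likelihood test was 0.0515 with DESeq2 size factors, 0.319 without JMJD3 library 1 and 0.274 without JMJD3 library 2, and by limma on log2(FPKM + 1) it was 0.108, over a range of 0.00838 to 0.319. MLXIP itself was lower, as given above.

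The TXNIP promoter is shown because TXNIP had the largest change of this list. The letters CACGAG, or CTCGTG on the other strand, were searched as part of the carbohydrate response element known from this gene, and are in 2380 of the 35116 windows (6.78%) and in 8.42% of the windows of tested genes. They occur at 88 and 77 bases before the start, in capitals, in chr1:145996580-145996829 on the minus strand of GRCh38.p14 (RefSeq).
TXNIP: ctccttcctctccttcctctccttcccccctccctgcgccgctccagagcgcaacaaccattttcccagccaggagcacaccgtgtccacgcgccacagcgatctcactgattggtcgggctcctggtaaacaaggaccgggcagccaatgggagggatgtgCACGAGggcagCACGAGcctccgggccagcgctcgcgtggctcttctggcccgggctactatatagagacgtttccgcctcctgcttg
The 2 copies are the only matches in the 250 bases shown, and no match was found in the members' windows. CACGCG, or CGCGTG on the other strand, was searched as well and was in 2 of the 12 windows of members, against 4014 of the 35116 windows (11.4%) and 17.2% of the windows of tested genes.

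Cofactors of the network were lower or not called. Of 15 MYC coactivators, all tested, 6 (40.0%) were lower and 9 not called by edgeR's quasi-likelihood test, against 19.1% lower and 21.6% higher of all genes, with a median log2 fold change of -0.21. Scaled by library totals alone, 3 were lower and 1 higher, with a median of -0.04. The number lower was 2 without JMJD3 library 1 and without JMJD3 library 2, and 10 without vector library 2. HCFC1, a host cell factor that binds MYC, was at 373 and 328 CPM in vector libraries and 194 and 216 CPM in JMJD3 libraries (log2 fold change -0.77), and KAT5 (-0.73), WDR5 (-0.47) and SMARCB1 (-0.42) were lower too. In a list of 9 genes for SIN3, HDAC and NCOR corepressor subunits and for MIZ1, the MYC partner at repressed promoters, ZBTB17 (the MIZ1 gene, -0.38), SAP18 (-0.26) and HDAC1 (-0.25) were lower and 6 were not called. Against 19.1% of all genes, 33.3% of this list were lower. With edgeR on library totals alone, 0 of the 9 were called and 0 had an unadjusted p under 0.05, and the median moved from -0.16 to 0.01. Both counts were also 0 with edgeR without JMJD3 library 1 and without JMJD3 library 2, while 4 were lower without vector library 1 and 5 without vector library 2. The DESeq2 Wald test, run only with its own size factors and all 4 libraries, called 4 lower.

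Genes that set the stability of MYC protein were a separate list. Of 15, 14 were tested, with 3 (21.4%) higher, 4 (28.6%) lower and 7 not called, against 21.6% and 19.1% of all genes. Scaled by library totals alone, 6 were higher and 3 lower. Without vector library 1, 7 were higher and 4 lower. Without JMJD3 library 1 edgeR called 2 higher and 0 lower (3 lower at an unadjusted p under 0.05), and without JMJD3 library 2 it called 1 higher and 0 lower (4 lower at an unadjusted p under 0.05), while the DESeq2 Wald test on all libraries called 6 lower. The deubiquitinase genes USP37 (log2 fold change 0.89) and USP28 (0.55) and the ubiquitin ligase gene BTRC (0.50) were higher. STUB1 (-0.55), the mitotic kinase gene AURKA (-0.49), GSK3A (-0.48), whose kinase marks MYC for degradation, and USP36 (-0.30) were lower. MYC protein was not measured in these libraries.

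The genes most like MYC over the 4 libraries were found among 8932 genes with a mean of at least 10 CPM, by the root mean square difference in log2 CPM after centring each gene. ALDH18A1, a proline synthesis enzyme, was the nearest at 0.00661, with 278 and 278 CPM in vector libraries and 228 and 226 CPM in JMJD3 libraries. ANKRD10 followed at 0.00859 and the histone demethylase gene KDM1A at 0.00878. In all, 517 genes lay within 0.05 of MYC, so that many genes share this pattern over 4 libraries.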

How the data were processed

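RNA-seq of 4 NB4 libraries was analysed from the deposited table. The estimated counts per gene were deposited by the authors, and 98.4% of nonzero values are not whole (tolerance 1e-06). Low values were mostly whole multiples of a fixed number per library, so a factor per library had been applied before deposit. The count tests took these scaled values, after rounding, as counts, and the effect on their p-values was not tested. The FPKM values were also deposited by the authors. Columns with the authors' mean FPKM, fold change, p-value, FDR and calls were not used. The submitters' processing notes name CASAVA 1.8, TopHat2 2.0.4, RSEM, edgeR and GRCh38, the methods name STAR, hg19, HTSeq-count and DESeq2, and the series design text names BWA and TopHat with Cufflinks, so the tool and build behind the values are uncertain.

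Counts were rounded, filtered with filterByExpr (15246 of 60662 genes kept), scaled with TMM and tested in 1 fit with edgeR 4.0.16 (glmQLFit, glmQLFTest, R 4.3.3), with Benjamini-Hochberg adjustment over all genes kept. The standard error is the size of the log2 fold change divided by the square root of F. The tests were checked on simulated counts. Alternatives used DESeq2 1.42.0, limma 3.58.1, other scalings, filters and thresholds, a replicate block and each library left out. Scaling by totals alone and a crossed block were added after seeing the data. Named genes were KDM6B, the members, MGA, MLXIP, MLXIPL, all repressed and MondoA targets, and in other lists up to 5 genes per direction at an adjusted p under 0.05 and a mean of at least 1 FPKM. A gene that this rule takes is not reported here. The promoter motifs and the promoters printed were chosen after the data were seen. The members and lists were chosen with earlier results of these data known.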

Additional observations from a re-analysis of the deposited data

How the results depend on the processing

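KDM6B stayed past the threshold under all alternatives, from 1.19 to 1.65 on the log2 scale. Library totals alone, added after seeing the data, left 1598 genes lower, 0 members lower, and 4 MYC activated targets higher and 13 lower. The DESeq2 Wald test called 2 members lower. With limma on log2(FPKM + 1) or log2(FPKM + 0.1), 2046 or 2032 genes were higher and 1 member was. With no filter on low counts more genes were tested, and 1893 were higher, 1776 lower, 1 member higher and 0 MYC activated targets higher (1 at an unadjusted p under 0.05). At an adjusted p under 0.01, 1468 genes were higher and 1300 lower, with 0 members in either direction and 0 MYC activated targets higher and 14 lower. At 2-fold or more these were 1151, 430, 0, 0, 0 and 1. Leaving out each library in turn gave 1890 to 4248 genes higher and 1110 to 4212 lower, 0 to 3 members higher and 0 to 3 lower, and 0 to 4 MYC activated targets higher and 11 to 26 lower. Without JMJD3 library 1 or 2, 0 members were called.

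Vector and JMJD3 libraries share replicate numbers, but nothing states that a number marks a shared culture or day, and the deviations of vector 1 and JMJD3 1 had a correlation of -0.146 over 15246 genes. With replicate number as a block, 3267 genes were higher and 2415 lower, 2 members were higher and 0 lower (2 at an unadjusted p under 0.05), and 1 and 20 MYC activated targets were higher and lower. A crossed block, added after seeing the data, called 4335 genes higher and 3772 lower, 3 members higher and 2 lower, and 4 MYC activated targets higher and 28 lower.

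Signs turned only for genes that were not called. MXD1 was at -0.00058 with DESeq2 size factors, -0.00059 with the DESeq2 Wald test, and between -0.19 (without vector library 2) and 0.24 with each library left out, with -0.059 without JMJD3 library 2. MNT was at 0.0016 and MLX at 0.051 with library totals alone. On log2(FPKM + 1) and log2(FPKM + 0.1), MNT was at 0.092 and 0.097 and NDRG2 at 0.013 and 0.031. CDKN1A ran from -0.14 without vector library 1 to 0.72 without vector library 2. Of the changes of 61 genes under the alternatives, 743 kept sign and side of the threshold, 200 fell short of it, 21 newly passed it and 11 turned sign. These numbers include the rules of an adjusted p under 0.01 and of 2-fold or more. Both reuse the reported fit with a stricter threshold, and neither is among the 14 alternatives counted above for single genes. The causes were not tested.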
